A study of Homo sapiens with 12 samples.

Results

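The 10 genes described here encode subunits of Polycomb repressive complex 2 (PRC2). They are EZH2, EZH1, EED, SUZ12, RBBP4, RBBP7, JARID2, MTF2, PHF19 and AEBP2. They were taken by name from the 58735 gene rows of the count tables, with no measured value in the rule, and all 10 were among the 17780 genes with enough counts to be tested.

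PRC2 methylates a lysine in the tail of histone H3, a mark carried by silenced genes, and is best known for keeping developmental regulators off. Its core joins a methyltransferase (EZH2, or the paralog EZH1) to EED, which binds the mark and stimulates the enzyme, to the scaffold SUZ12, and to a histone-binding protein, RBBP4 or RBBP7. Accessory proteins then bind SUZ12 in forms that exclude each other, either a Polycomb-like protein (PHF1, MTF2 or PHF19) or JARID2 with AEBP2. EZH2 is the methyltransferase typical of dividing cells and is abundant in many breast cancers, whereas EZH1 is also found in cells that no longer divide.

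Poly(A) RNA of MDA-MB-468, a triple-negative breast cancer cell line, was sequenced in 12 libraries, with 3 libraries (A, B and C) in each of 4 groups. The control group had DMSO, and its hours, serum and plate size are not stated. Drug, hours and culture therefore cannot be told apart in any comparison with it. Docetaxel, a taxane that stabilises microtubules, was given at 10 nM for 8 h in one group and for 24 h in another. The last group, called the combination, had 5 µM tazemetostat, an inhibitor of the catalytic site of EZH2, together with 5 µM ipatasertib, an inhibitor of the kinase AKT, for 24 h in medium with 2% FBS. Per the labels its cultures had spent the preceding 5 days in tazemetostat or in DMSO, and libraries with either inhibitor alone were not analysed here, so the parts of the 2 drugs, of the serum and of the longer exposure cannot be told apart. Nothing says that the letters stand for separate cultures, so the p-values measure the spread between libraries, which may be technical.

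Libraries held between 29820617 and 45807059 counts. Mitochondrial genes took 4.0% to 4.48% of the counts in DMSO, 8.20% to 9.0% after 8 h of docetaxel, 5.00% to 7.53% after 24 h and 7.71% to 9.30% in the combination. All 7 basal and epithelial markers expected of the line (EGFR, KRT5, KRT14, KRT17, KRT18, EPCAM and CDH1) were present and summed to between 6861 and 9717 CPM, the counts of a gene relative to its library's scaled total. The 4 markers expected to be absent (RB1, SMAD4, ESR1 and PGR) summed to between 4.67 and 7.39 CPM, so they were not all at 0. RB1 lay between 3.10 and 5.11 CPM and ESR1 between 0.744 and 2.13 CPM, whereas SMAD4 stayed between 0.148 and 0.463 CPM. The 6 fibroblast markers summed to 21.1 to 22.4 CPM in DMSO, 12.3 to 13.6 CPM after 8 h of docetaxel, 16.5 to 19.6 CPM after 24 h and 22.2 to 23.3 CPM in the combination. In the same order the 6 immune markers summed to 54.2 to 56.8, 25.9 to 27.4, 34 to 36.1 and 38.4 to 44.9 CPM. The 6 endothelial markers summed to 21.7 to 24.4, 12.1 to 17.8, 13.6 to 15.1 and 38.9 to 40.1 CPM. Single markers moved in both directions between DMSO and the combination. LUM went from 0 to 3.76 to 4.61 CPM and CSF1R from 2.60 to 2.88 CPM to 15.2 to 15.6 CPM. CD14, which made up most of the immune sum, went from 51.2 to 54.1 CPM to 22.7 to 29.6 CPM, and COL1A1 from 20.9 to 22.3 CPM to 16.8 to 18.9 CPM. The part of the mitochondrial share and of these markers in the results below was not tested, and in bulk RNA fewer cells of a kind and less RNA per cell cannot be told apart.

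In the combination 7 of the 10 subunit mRNAs fell and 1 rose against DMSO, at a Benjamini-Hochberg adjusted p under 0.05 in edgeR's quasi-likelihood fit of all genes. EZH2, RBBP4, SUZ12, MTF2, EED, RBBP7 and AEBP2 fell, EZH1 rose, and JARID2 and PHF19 did not pass. This stood against a background of 62.8% of all genes past the threshold, 31.4% higher and 31.4% lower. The median log2 fold change of the 10 was -0.33, and that of all genes tested was 0.01.

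After 8 h of docetaxel 4 members rose (EZH2, EED, RBBP7 and PHF19) and 3 fell (SUZ12, RBBP4 and JARID2). Of all genes, 47.3% passed the same threshold, 22.5% higher and 24.8% lower, and the median log2 fold change was -0.0040 for the members and -0.02 for all genes. This split depended on the scaling. Scaling by the totals of the libraries, which moved the median of all genes by -0.15, 1 member was higher and 4 were lower. Without docetaxel 8 h library A, 2 were higher.

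After 24 h of docetaxel 1 member rose (MTF2) and 5 fell (EZH2, SUZ12, RBBP4, RBBP7 and JARID2). The background was 42.9% of genes, 20.2% higher and 22.7% lower, and the medians were -0.10 for the members and 0.01 for all genes. The 3 comparisons share their DMSO libraries. In each of them the members that passed the threshold were those whose 3 treated libraries all lay outside the range of the 3 DMSO libraries. Both come from the same libraries, and the share of all genes lying outside was not counted, so this is no separate support.

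**Figure D1:**
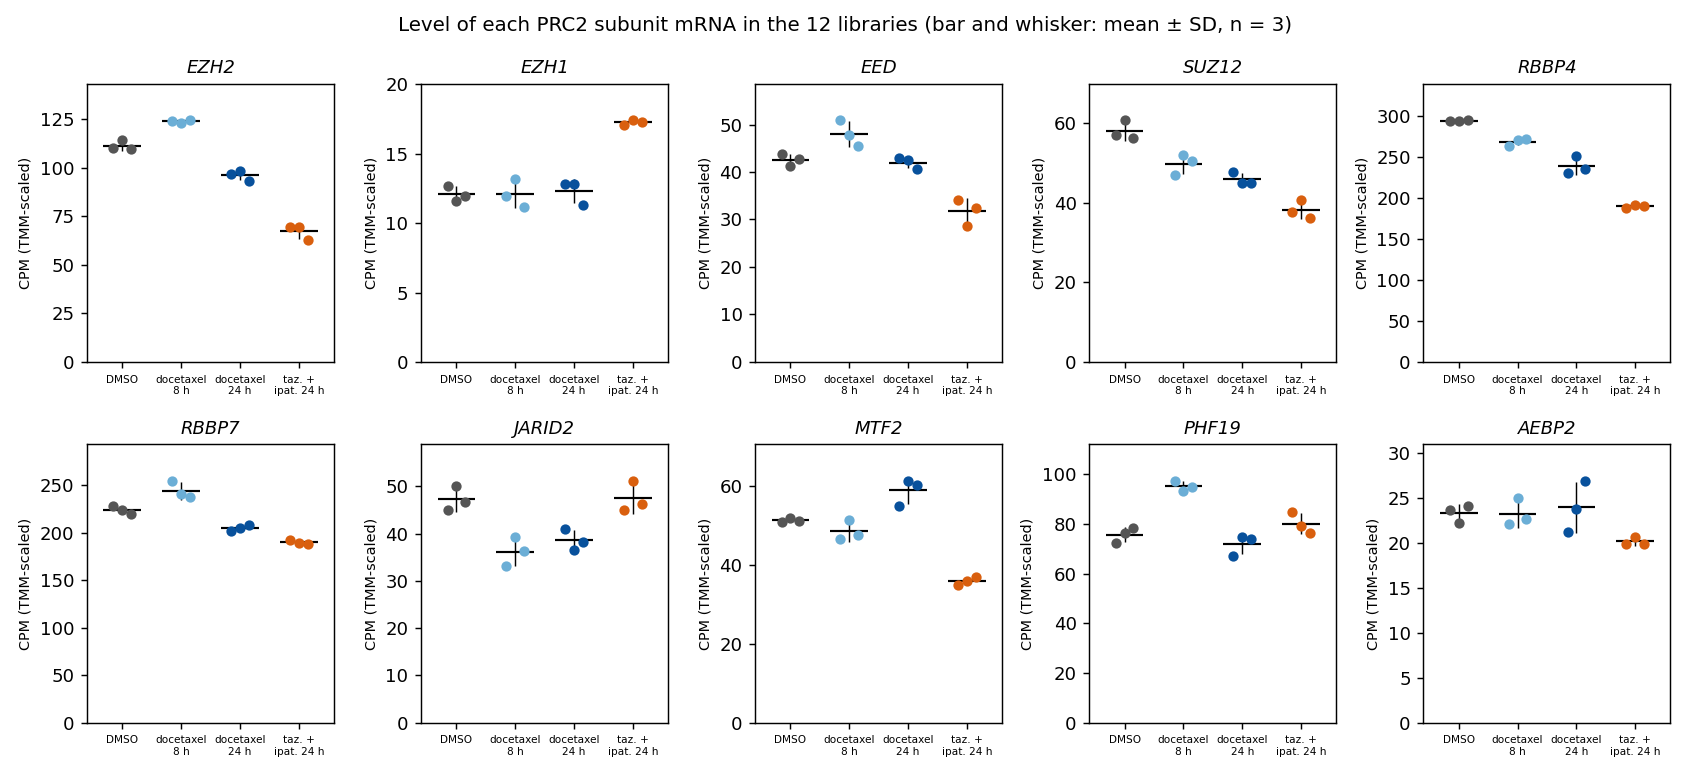
Level of each subunit mRNA in every library, in CPM scaled by TMM factors on a linear axis from 0, with DMSO in grey, docetaxel in blue and the combination in orange. Points are libraries A, B and C from left to right, and the bar and whisker give the mean and SD (n = 3). EZH2 lies lowest in the combination (62.8 to 69.7 CPM) and EZH1 highest there (17.1 to 17.5 CPM).

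EZH2, the methyltransferase that tazemetostat inhibits, was read at 110.0, 114 and 109 CPM in DMSO libraries A, B and C. It stood at 124, 123 and 125 CPM after 8 h of docetaxel and at 96.8, 98.6 and 93.3 CPM after 24 h. In the combination it was 69.7, 69.5 and 62.8 CPM. No library of any group overlapped the range of another group, and the order from high to low was docetaxel 8 h, DMSO, docetaxel 24 h, combination. The fall in the combination was 1.65-fold, a log2 fold change of -0.73 ± 0.05 (SE, adjusted p = 1.68e-11), and 6.78% of all genes fell further. After docetaxel the log2 fold change of EZH2 was 0.16 ± 0.05 at 8 h (adjusted p = 0.0106) and -0.21 ± 0.05 at 24 h (adjusted p = 0.00129). The rise at 8 h was not found with library totals as the scaling, where the log2 fold change was 0.0017. The gene lies on the reverse strand of chromosome 7 (GRCh38, 148807383 to 148884321).

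EZH1, the paralog with weaker methyltransferase activity, moved the other way in the combination. Its levels were 12.7, 11.6 and 12 CPM in DMSO, 11.9, 13.2 and 11.2 CPM after 8 h of docetaxel, and 12.8, 12.8 and 11.3 CPM after 24 h. The combination libraries read 17.1, 17.5 and 17.3 CPM, all above the other 9 libraries, which overlapped among themselves. The rise was 1.43-fold (log2 fold change 0.51 ± 0.08, adjusted p = 6.56e-06). Against docetaxel, the combination was higher by 0.49 ± 0.08 at 24 h and by 0.51 ± 0.08 at 8 h. For docetaxel itself the log2 differences from DMSO were -0.0018 at 8 h (95% interval -0.19 to 0.19) and 0.02 at 24 h (-0.17 to 0.21). Changes of EZH1 inside those bounds thus remain possible.

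EED, the subunit that reads the methyl mark, had 43.9, 41.2 and 42.6 CPM in DMSO and 34.1, 28.6 and 32.4 CPM in the combination. Docetaxel libraries held 51.0, 47.8 and 45.4 CPM at 8 h and 42.9, 42.6 and 40.6 CPM at 24 h. The combination lay below every other library, and the 24 h docetaxel libraries overlapped DMSO. The log2 fold change in the combination was -0.43 ± 0.06 (adjusted p = 4.00e-06). The rise at 8 h of docetaxel (0.17 ± 0.06, adjusted p = 0.0242) did not pass with library totals (0.02), without DMSO library B (0.17) or without docetaxel 8 h library A (0.13), with adjusted p between 0.0128 and 0.825 over all alternatives.

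SUZ12, the scaffold on which core and accessory subunits meet, fell in all 3 treated groups. DMSO libraries had 57.0, 60.9 and 56.3 CPM, and the combination had 37.7, 40.6 and 36.2 CPM. Docetaxel libraries had 46.9, 52.0 and 50.5 CPM at 8 h and 47.7, 45.1 and 44.9 CPM at 24 h, between the other 2 groups and overlapping each other. Log2 fold changes against DMSO were -0.22 ± 0.06 at 8 h (adjusted p = 0.00265), -0.34 ± 0.06 at 24 h (4.97e-05) and -0.60 ± 0.06 in the combination (5.02e-09). SUZ12P1, a pseudogene copy elsewhere on chromosome 17 with which reads could have been exchanged, also fell in the combination (-0.34 ± 0.08, adjusted p = 0.000557). In docetaxel SUZ12P1 gave log2 fold changes of 0.0011 at 8 h and 0.05 at 24 h, neither past the threshold.

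RBBP4 and RBBP7 are close paralogs that bind histones in PRC2 and in several deacetylase and chromatin assembly complexes. RBBP4 read 294, 294 and 295 CPM in DMSO, 264, 271 and 272 CPM after 8 h of docetaxel, 230.2, 251 and 236 CPM after 24 h, and 188, 191 and 190.2 CPM in the combination. Each group lay wholly below the one before it. Log2 fold changes were -0.13 ± 0.05 at 8 h (adjusted p = 0.0192), -0.30 ± 0.05 at 24 h (1.20e-05) and -0.63 ± 0.05 in the combination (3.48e-11). The call at 8 h was lost without any single DMSO library (-0.12, -0.11 and -0.11 without A, B and C) and without docetaxel 8 h library A (-0.12), with adjusted p of up to 0.126 over all alternatives. Of the annotated exon bases of RBBP4, 18% overlap SYNC on the opposite strand, and the strand setting of the counting is not given, so reads of SYNC could be included.

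RBBP7 had a different course. It read 228, 223 and 219.5 CPM in DMSO, 255, 241 and 237 CPM after 8 h of docetaxel, 202, 205 and 208 CPM after 24 h, and 193, 189 and 188 CPM in the combination. The 4 groups did not overlap, and the 8 h libraries were highest. Its log2 fold changes of 0.13 ± 0.04 at 8 h (adjusted p = 0.0217), -0.13 ± 0.04 at 24 h (0.0260) and -0.24 ± 0.04 in the combination (8.27e-05) were all within 0.3 of 0, and the last was the smallest fall of a core subunit in the combination. With library totals the 8 h value was -0.028, the opposite sign. The 8 h call was also lost without docetaxel 8 h library A (0.096) or without a filter on low counts (0.12). The 24 h call was lost when DMSO library A, B or C or docetaxel 24 h library A or B was left out (-0.11, -0.12, -0.13, -0.12 and -0.13), with adjusted p of up to 0.123. TXLNG overlaps 2.42% of its exon bases on the opposite strand.

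Among the accessory subunits, the Polycomb-like proteins guide PRC2 to CpG-rich DNA. MTF2 held 50.9, 51.8 and 51.0 CPM in DMSO and 34.7, 36.0 and 37.0 CPM in the combination. Docetaxel libraries held 46.5, 51.4 and 47.5 CPM at 8 h, overlapping DMSO, and 55.0, 61.3 and 60.3 CPM at 24 h, above every other library. MTF2 thus fell in the combination (-0.51 ± 0.06, adjusted p = 4.59e-08) and rose after 24 h of docetaxel (0.20 ± 0.05, adjusted p = 0.00474). The 8 h value was -0.08 ± 0.06 (adjusted p = 0.253), and it passed the threshold with library totals (-0.23).

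PHF19, the second Polycomb-like member of the set, was read at 72.4, 76.4 and 78.4 CPM in DMSO and at 84.7, 79.2 and 76.5 CPM in the combination. After docetaxel it was 97.4, 93.3 and 94.8 CPM at 8 h and 67.1, 74.9 and 73.8 CPM at 24 h. The 8 h libraries stood above all others, and the remaining groups overlapped DMSO. The rise at 8 h was 1.26-fold (log2 fold change 0.33 ± 0.05, adjusted p = 2.43e-05), the largest of any member at that time, and with library totals it was still past the threshold (0.18). In the combination the log2 fold change was 0.08 with a 95% interval of -0.04 to 0.21 (adjusted p = 0.191).

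JARID2, which helps place PRC2 on its targets, had the largest fall of any member after 8 h of docetaxel. It had 45, 50.2 and 46.6 CPM in DMSO, 33.1, 39.2 and 36.2 CPM after 8 h, 41.0, 36.6 and 38.2 CPM after 24 h, and 44.9, 51.2 and 46.2 CPM in the combination. All docetaxel libraries lay below all DMSO and combination libraries, and the latter groups overlapped. Log2 fold changes were -0.38 ± 0.07 at 8 h (adjusted p = 6.39e-05) and -0.29 ± 0.07 at 24 h (adjusted p = 0.00120). In the combination the value was 0.0068 with a 95% interval of -0.15 to 0.16.

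AEBP2, which joins JARID2 on SUZ12, was the accessory member with the lowest level per kilobase of exon. Its scaled levels were 23.6, 22.2 and 24.0 CPM in DMSO, 22, 25 and 22.6 CPM after 8 h of docetaxel, and 21.2, 23.7 and 26.9 CPM after 24 h, all overlapping. The combination had 19.9, 20.6 and 19.9 CPM, below every DMSO library. The log2 fold change there was -0.21 ± 0.08 (adjusted p = 0.0214). That call was lost without DMSO library A (-0.20), DMSO library C (-0.19) or combination library C (-0.20), with adjusted p between 0.00395 and 0.0826 over all alternatives.

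**Figure D2:**
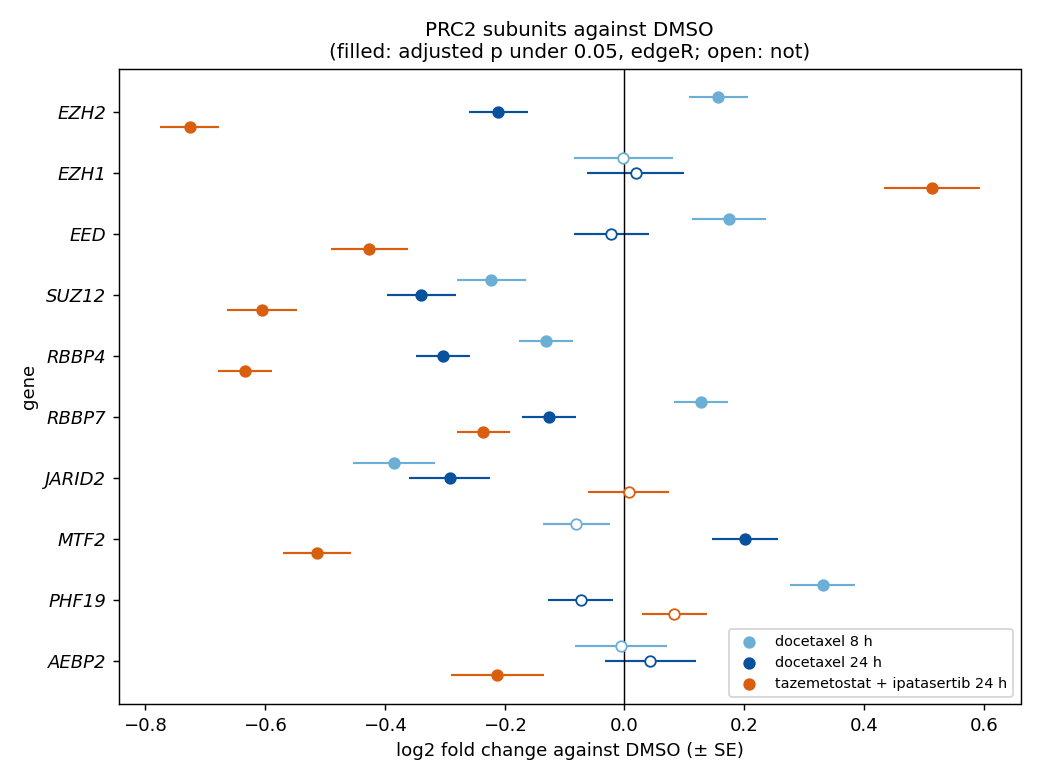
Log2 fold change against DMSO on the horizontal axis for each subunit, with whiskers of 1 SE from edgeR, for docetaxel at 8 h, docetaxel at 24 h and the combination. Filled points passed an adjusted p of 0.05. In the combination EZH1 lies at 0.51 and EZH2 at -0.73, on opposite sides of 0.

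The docetaxel times differed for 6 members when compared directly. From 8 h to 24 h, EZH2, EED, RBBP4, RBBP7 and PHF19 fell and MTF2 rose, beside 34.9% of all genes past the threshold, 18.3% lower and 16.6% higher. PHF19 fell by 0.40 on the log2 scale (SE 0.05, adjusted p = 3.51e-06) and EZH2 by 0.37 (SE 0.05, adjusted p = 3.31e-06). MTF2 rose by 0.28 ± 0.06 (adjusted p = 0.000341). With library totals, which moved the median of all genes by 0.13 here, 2 members were higher and 3 were lower.

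Set against docetaxel at the same 24 h, the combination had 3 members higher (EZH1, JARID2 and PHF19) and 7 lower, while 32.1% of all genes were higher and 31.7% lower (63.8% in all). MTF2 differed most, by a log2 value of -0.71 ± 0.06 (adjusted p = 1.82e-10), followed by EZH2 at -0.51 ± 0.05 (5.58e-09). The RBBP7 difference of -0.11 ± 0.04 (adjusted p = 0.0376) did not pass under RLE size factors (-0.10) or with only the groups compared (-0.11). It was also lost without docetaxel 24 h library B (-0.11) or C (-0.09) and without combination library B (-0.11) or C (-0.10). Leaving out single libraries gave 5 to 7 members lower and 2 to 3 higher. Against docetaxel at 8 h, 2 members were higher (EZH1 and JARID2) and 8 lower (7 with library totals, which leave out AEBP2), with a background of 34.3% higher and 32.1% lower (66.4% in all). Plates, serum and times before dosing differ between these groups as far as the labels give them, so drug and culture cannot be told apart.

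Levels of different genes were compared per kilobase of annotated exon. In DMSO RBBP4 (31.1 ± 0.0779 CPM per kb, SD, n = 3) and RBBP7 (30.2 ± 0.556) were highest, followed by EZH2 (24.6 ± 0.602) and PHF19 (11.2 ± 0.451). SUZ12 (8.87 ± 0.378), MTF2 (8.67 ± 0.0823), JARID2 (7.86 ± 0.438) and EED (6.07 ± 0.188) came next, and AEBP2 (3.55 ± 0.145) and EZH1 (1.73 ± 0.0786) were lowest. These values use the union of all annotated exons and not the transcripts that the cells make.

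Because the balance between paralogs is taken within a library, no scaling factor enters it. EZH2 made up 93.0%, 93.8% and 93.4% of the EZH1 and EZH2 counts per kb in DMSO and 86.3%, 86.0% and 84.9% in the combination. The means differed by -7.70 percentage points (85.7% ± 0.767 against 93.4% ± 0.391, SD, n = 3) and the libraries did not overlap. The exact two-sided permutation p was 0.1, the smallest that 3 libraries against 3 allow. Docetaxel gave 94.1% ± 0.511 at 8 h, overlapping DMSO (exact p = 0.2), and 92.4% ± 0.323 at 24 h, below DMSO (exact p = 0.1).

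RBBP7 accounted for 49.3% ± 0.519 of the RBBP4 and RBBP7 counts per kb in DMSO (SD, n = 3). The share was 53.8% ± 1.36 after 8 h of docetaxel, 52.4% ± 1.09 after 24 h and 56.2% ± 0.495 in the combination. All 9 treated libraries lay above the 3 DMSO libraries (exact permutation p = 0.1 for each group).

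For the 3 Polycomb-like genes, PHF19 made up 33.4% ± 1.06 in DMSO, 40.1% ± 0.641 after 8 h of docetaxel and 30.6% ± 0.811 after 24 h (SD, n = 3). The 8 h libraries lay above and the 24 h libraries below DMSO (exact permutation p = 0.1 each). In the combination the share was 34.9% ± 1.39 and overlapped DMSO (exact p = 0.2). JARID2 with AEBP2 made up 21.3% ± 0.257 of 7 accessory genes in DMSO, 17.8% ± 1.18 and 19.0% ± 0.603 after 8 h and 24 h of docetaxel, both below DMSO (exact p = 0.1), and 21.6% ± 1.35 in the combination (exact p = 0.9).

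**Figure D3:**
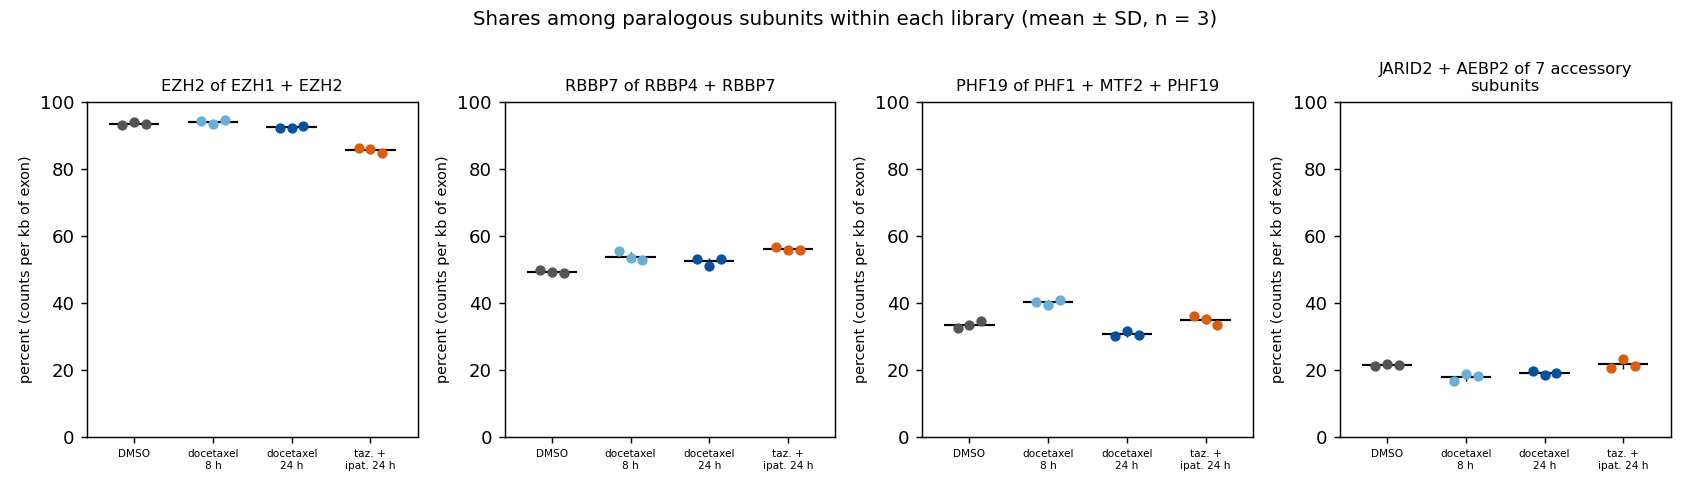
Share of a subunit among its paralogs or alternatives within each library, in percent of counts per kb of exon on an axis from 0 to 100. Points are libraries, bars and whiskers the mean and SD (n = 3). EZH2 drops from 93.4% in DMSO to 85.7% in the combination, and RBBP7 lies above DMSO in all 9 treated libraries.

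Beside the 10 members stood 5 further PRC2 genes, of which PHF1 rose and 3 fell in the combination, and EZHIP is given by its counts alone. None passed in docetaxel at either time by edgeR's test, and with library totals 1 was lower at 8 h. Over all genes, 31.4% rose and 31.4% fell in the combination. EPOP, an accessory factor that links PRC2 to elongin, fell from 25.7, 25.1 and 25.1 CPM to 17.5, 14.8 and 17.1 CPM (-0.62 ± 0.07, adjusted p = 1.27e-07). LCOR, whose locus also encodes the accessory protein PALI1, fell by 0.45 ± 0.08, and its relative LCORL by 0.29 ± 0.09. PHF1, the remaining Polycomb-like gene, rose from 49.6, 50.3 and 48.3 CPM to 58.9, 55.9 and 59.0 CPM (0.23 ± 0.05, adjusted p = 0.000697).

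EZHIP, listed in the files as CXorf67, an inhibitor of PRC2 that is normally restricted to germ cells, was near the limit of detection. It had 3, 4 and 1 counts in the DMSO libraries, 0, 1 and 3 after 8 h of docetaxel, 2, 3 and 4 after 24 h, and 21, 12 and 17 in the combination. Every combination library exceeded the other 9. EZHIP passed the filter on low counts through the combination libraries only, so no test is given, and its level was at most 0.65 CPM.

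PRC1, the partner complex that ubiquitinates histone H2A at many of the same sites, had 7 genes higher and 8 lower of 21 in the combination (median -0.04, and 0.0029 without combination library B). These counts stood beside 31.4% of all genes higher and 31.4% lower. BMI1, a ring finger subunit, rose 2.19-fold, from 25.2, 25.5 and 24.0 CPM to 55.6, 55.5 and 52.4 CPM (1.13 ± 0.06, adjusted p = 3.84e-13). PCGF5 rose by 0.55 ± 0.05, whereas CBX2, a chromodomain subunit that reads the PRC2 mark, fell by 0.73 ± 0.05 and KDM2B, which binds unmethylated CpG islands, by 0.57 ± 0.06. CBX7, another chromodomain subunit and chosen after its values were seen, rose by 0.67 ± 0.08. Docetaxel gave 1 higher and 10 lower at 8 h (22.5% and 24.8% of all genes) and 3 higher and 7 lower at 24 h (20.2% and 22.7%). The 8 h count of lower genes was 5 without DMSO library B and 15 with library totals.

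Enzymes and cofactors that oppose PRC2 remove its mark, act against PRC1 or place marks that block it. Against DMSO their genes fell or did not pass, and none of the 13 rose. In the combination 10 fell (median -0.36), beside 31.4% of all genes. The count was 8 under DESeq2 and 7 without DMSO library B or combination library A. Among the 10 were NSD1 (-0.65 ± 0.07), KMT2C (-0.59 ± 0.08), SETD2 (-0.46 ± 0.06) and NSD2 (-0.34 ± 0.05). The demethylases of the PRC2 mark, named here after their values were seen, were among the 10, with KDM6A at -0.49 ± 0.08 and KDM6B at -0.17 ± 0.07. The KDM6B call was lost under DESeq2 (-0.17) and without DMSO library B (-0.14), DMSO library C (-0.18) or combination library A (-0.09). After 8 h of docetaxel 8 were lower, beside 24.8% of all genes, or 12 with library totals. After 24 h 5 were lower, beside 22.7% of all genes. The alternatives gave 3 to 7, with 3 without docetaxel 24 h library B and 7 without library A or with the replicate block.

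RBBP4 and RBBP7 also serve deacetylase and histone chaperone complexes, and 14 of 18 genes of those complexes fell in the combination while none rose (median -0.25), although 2 rose when only the groups compared were fitted. MTA2, a subunit of the NuRD remodelling complex, fell by 0.65 ± 0.05, the NuRD subunit GATAD2A by 0.45 ± 0.05, the deacetylase HDAC1 by 0.39 ± 0.04 and CHAF1A, of the replication-coupled assembly factor, by 0.74 ± 0.05. At 8 h of docetaxel 9 were higher and 3 lower, a balance that library totals changed to 7 and 7. At 24 h 4 were higher and 6 lower. Over all genes, 31.4% rose and 31.4% fell in the combination, 22.5% and 24.8% at 8 h of docetaxel, and 20.2% and 22.7% at 24 h.

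E2F transcription factors are known to activate EZH2 and EED along with the genes of DNA replication. In the combination 19 of 20 E2F and replication genes fell (median -0.90, beside -0.33 for the subunits), with RRM2, of ribonucleotide reductase, at -1.38 ± 0.05, E2F1 at -1.27 ± 0.05, CDC6, of origin licensing, at -1.15 ± 0.05 and MCM6, of the replicative helicase, at -1.12 ± 0.05. CDT1, the exception, was at 212, 220.1 and 219 CPM in DMSO and 241, 215 and 225 CPM in the combination (0.06 ± 0.05, adjusted p = 0.319). After 24 h of docetaxel 18 fell (median -0.43) and E2F3 rose by 0.17 ± 0.06, a call that was lost with library totals (0.14) and without DMSO library A (0.15) or docetaxel 24 h library A (0.15) or C (0.16). After 8 h 11 were higher and 3 lower, or 6 and 5 with library totals, and without DMSO library B 1 was lower. The shares of all genes were 31.4% lower in the combination, 22.7% lower after 24 h of docetaxel, and 22.5% higher and 24.8% lower after 8 h.

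In the G2 and mitosis list the combination had 5 genes higher and 6 lower of 15 (median -0.02, and 0.0077 without combination library C). These counts stood beside 31.4% of all genes higher and 31.4% lower. MYBL2 fell by 0.86 ± 0.05, CCNA2 by 0.51 ± 0.05 and LIN9 by 0.47 ± 0.07, and CCNB2 rose by 0.39 ± 0.06. At 8 h of docetaxel 14 of 15 were higher (median 0.51, and 11 with library totals), beside 22.5% of all genes. At 24 h 6 were higher and 5 lower, beside 20.2% and 22.7% of all genes.

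Textbook targets of PRC2 held 24 genes, of which 15 had enough counts to be tested, so the counts below leave out 9 genes with too few counts. Of the 15, 8 were higher and 2 lower in the combination (median 0.41), beside 31.4% of all genes higher and 31.4% lower. SLIT2, a guidance ligand, rose from 0.115, 0.0951 and 0.413 CPM to 6.59, 6.80 and 6.57 CPM (5.01 ± 0.31, adjusted p = 3.20e-12), and CDKN1C, a CDK inhibitor, from 3.59, 4.06 and 4.75 CPM to 19.8, 16.3 and 20.9 CPM (2.21 ± 0.12, adjusted p = 4.44e-13). CDKN2B rose by 0.38 ± 0.05. The 2 that fell were RUNX3 (-0.47 ± 0.05) and WT1 (-0.25 ± 0.07), and CDKN2A, HOXA9, PAX2 and PAX7 were among those that did not pass. Docetaxel had 1 higher (CDKN2A, 0.16) and 6 lower at 8 h, beside 22.5% and 24.8% of all genes. At 24 h it had 5 higher and 2 lower, beside 20.2% and 22.7%. The 8 h median of -0.27 was -0.0063 under DESeq2 and -0.024 without a filter, which also count genes with few counts. The 24 h median of 0.24 was 0.08 and 0.07 under these, and 0.08 without docetaxel 24 h library C. CDKN2A at 8 h did not pass with library totals (0.0087) or without docetaxel 8 h library A (0.12).

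**Figure D4:**
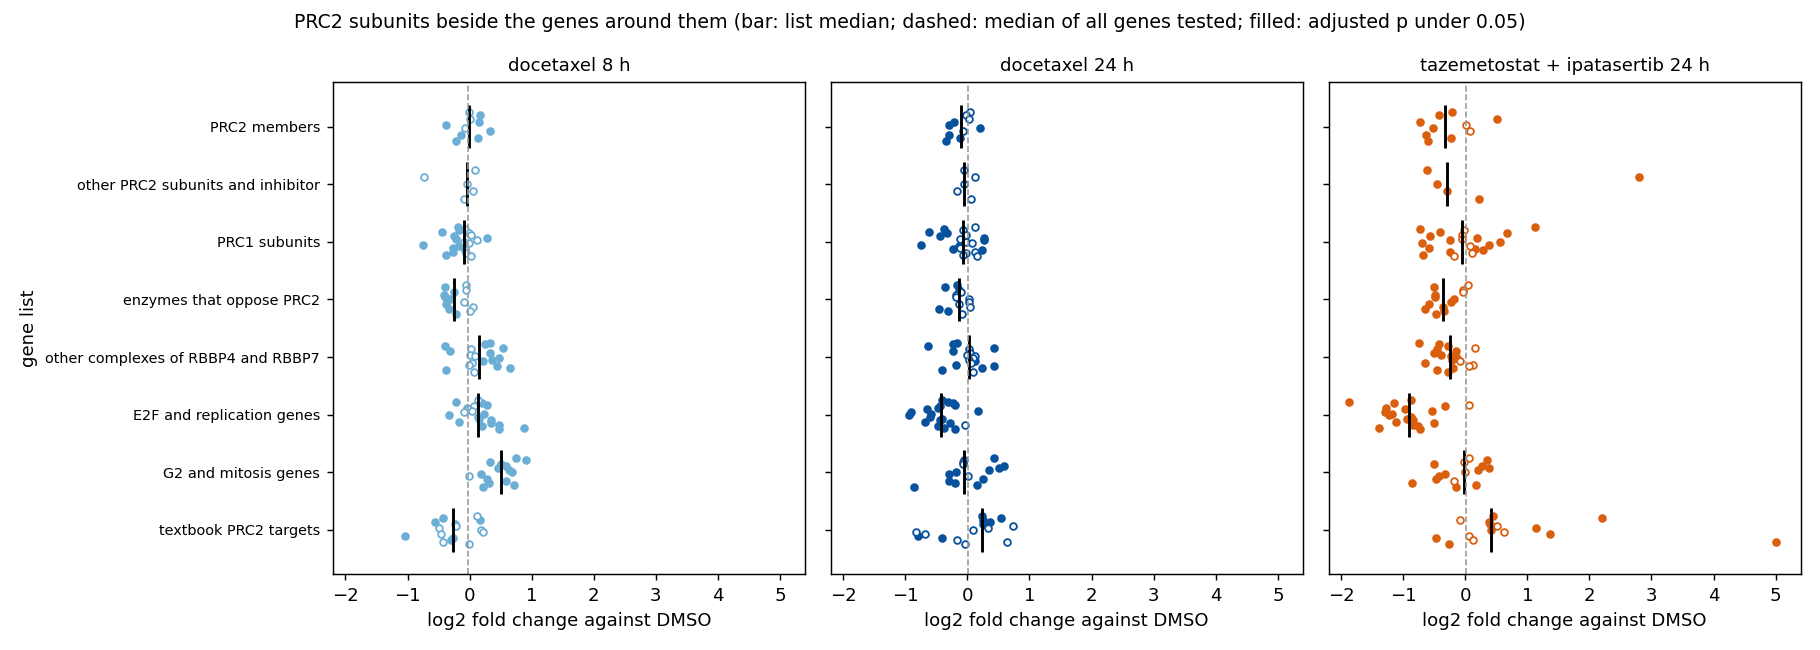
Log2 fold change against DMSO of every tested gene in the subunit list and 7 related lists, in 1 panel for each treatment. Points are genes, filled where the adjusted p was under 0.05, the black bar is the list's median and the dashed line the median of all genes tested. In the combination the subunits (median -0.33) lie between the E2F and replication genes (median -0.90) and the textbook targets (median 0.41).

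Promoters of the 10 members were searched for the letters of 3 motifs, those of E2F factors, of the cell cycle homology element found in genes of mitosis, and of FOXO factors, which AKT restrains. RefSeq tables (GRCh38.p14) gave 15 promoters for the 10 genes, and the 250 bases before each start were read on both strands. The E2F letters searched were TTTCCCGC, TTTCGCGC, TTTGCCGC and TTTGGCGC, and they occurred in EZH1, SUZ12, PHF19 (at its second start) and AEBP2. Of all 35116 promoters, 2.79% held them, as did 3.40% of 27305 genes. The letters of the cell cycle homology element (TTTGAA or TTTAAA) occurred in SUZ12 and JARID2 and in 21.9% of all promoters, and the FOXO letters GTAAACA in no member and in 2.98% of promoters. The E2F and homology element letters do not overlap in SUZ12. For EZH1 and the first start of JARID2, bases shortly after the RefSeq start were not found in a GENCODE transcript of the gene. At all other starts they were found. The matches in EZH1 and JARID2 lie before those unmatched starts. The windows of 60 bases around each E2F match are shown 5′ to 3′ on the gene's strand, with matched letters of either strand in capitals. The second run of capitals in SUZ12 is the homology element letters read on the other strand.

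EZH1, chr17:42745122-42745181, reverse strand: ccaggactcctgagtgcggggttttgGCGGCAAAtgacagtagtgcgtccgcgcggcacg
SUZ12, chr17:31936792-31936851, forward strand: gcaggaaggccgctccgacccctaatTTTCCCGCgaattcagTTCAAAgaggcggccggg
PHF19, chr9:120877307-120877366, reverse strand: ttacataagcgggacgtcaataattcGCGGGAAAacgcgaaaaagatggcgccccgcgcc
AEBP2, chr12:19440423-19440482, forward strand: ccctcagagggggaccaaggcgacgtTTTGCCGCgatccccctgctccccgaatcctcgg

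The match begins 115 bases before the start in EZH1, 189 in SUZ12, 152 in PHF19, where 22 bases of the window are annotated as exon, and 150 in AEBP2. The 4 genes did not share a course: in the combination EZH1 rose by 0.51, SUZ12 and AEBP2 fell by 0.60 and 0.21, and PHF19 was at 0.08 on the log2 scale. EZH2, which fell most, held none of the letters at either start. Its 200 bases from 250 to 51 before the first start are shown for comparison, all in lower case.

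EZH2, chr7:148884342-148884541, reverse strand: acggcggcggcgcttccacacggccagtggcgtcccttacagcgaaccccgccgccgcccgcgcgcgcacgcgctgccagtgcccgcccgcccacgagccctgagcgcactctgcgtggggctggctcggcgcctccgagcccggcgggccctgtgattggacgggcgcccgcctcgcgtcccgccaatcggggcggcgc

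A match of letters is a description of the sequence and not a site of binding, and its absence says only that these letters are not in the window.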

How the data were processed

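RNA of 12 libraries was sequenced, 3 in each of 4 groups. The authors deposited raw counts per gene symbol, whole numbers in a table per library. Per the submitters' processing notes fastp, HISAT2 2.0.5, DESeq2 and the build hg38 were used, without their roles. Which program counted the reads, on which annotation and with which strand rule, is not given in the sources used here. The authors' other table was left out, since it holds no raw counts.

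Genes were kept by filterByExpr with a minimum count of 10 (17780 of 58735, with 1568 repeated symbols kept separate). In R 4.3.3, edgeR 4.0.16 was run on the 12 libraries together, with group means as the model, TMM factors of 0.917 to 1.05, 8 residual degrees of freedom and a biological coefficient of variation of 5.59%. Two-sided quasi-likelihood tests were adjusted by Benjamini-Hochberg over all genes, with 0.05 as the threshold. SE is the log2 fold change divided by the root of the test statistic. Intervals are 95% and use the 8 residual degrees of freedom. The tests use more, by sharing information across genes, so the intervals are wider than the p-values imply. CPM use TMM-scaled totals. Intervals cover the spread between libraries, and PCR duplicates cannot be recognised in the counts. Replicates differed by more than sampling noise (chi-square per degree of freedom 3.25 to 16.3). The script was tested on simulated data.

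Members and lists were chosen with earlier results of these data known. Named were all members, up to 4 genes of each other list with the smallest adjusted p in the combination, and for 4 core genes those most alike in course. Some genes that this rule names are not reported here. Coordinates and exon lengths came from GENCODE 29 (GRCh38), promoters from RefSeq. Alternatives were DESeq2 1.42.0, RLE factors, library totals, no mitochondrial genes, no filter, only the groups compared, a replicate block, single libraries left out, and other lengths for the balances. The protein comparison of EZH1 and EZH2 was not made, since protein sequences were not used here.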

Additional observations from a re-analysis of the deposited data

Results flagged for a closer look

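For 6 members the level differed between 8 h and 24 h of docetaxel. The test was edgeR's, of the 24 h libraries against the 8 h libraries, with adjustment over all genes. Both times share a DMSO group whose hours are not stated, so docetaxel and time in culture cannot be told apart. EZH2 differed by -0.37 on the log2 scale (adjusted p = 3.31e-06), from 0.16 against DMSO at 8 h to -0.21 at 24 h. PHF19 differed by -0.40 (adjusted p = 3.51e-06), from 0.33 to -0.07, and RBBP7 by -0.25 (adjusted p = 0.000103), from 0.13 to -0.13. Against DMSO at 8 h, library totals gave 0.0017 for EZH2 and -0.028 for RBBP7, neither past the threshold. The 8 h call of RBBP7 was also lost without docetaxel 8 h library A (0.096). EED differed by -0.20 (adjusted p = 0.0169) and RBBP4 by -0.17 (adjusted p = 0.00493). MTF2 went the other way, by 0.28 (adjusted p = 0.000341), from -0.08 to 0.20. The 3 libraries of each time did not overlap for any of the 6, but the 6 were picked by a test of these same libraries, so this is no separate support. The same test passed 34.9% of all genes. With library totals as the scaling the differences of EED (-0.06) and RBBP4 (-0.04) no longer passed, and that of EED was also lost without docetaxel 8 h library A (-0.15) or docetaxel 24 h library C (-0.18). Mitochondrial genes took 8.20% to 9.0% of the counts at 8 h and 5.00% to 7.53% at 24 h, and their part in these differences was not tested.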

How the results depend on the processing

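Over all members, comparisons and alternatives, 740 values kept their side of the threshold, and the called ones among them also kept their direction. A further 36 lost a call, 3 gained a call and 1 that had a call changed sign. Uncalled values near 0 that changed sign are counted in the 740, such as JARID2 in the combination against DMSO (-0.053 to 0.054 over alternatives). RBBP7 after 8 h of docetaxel was -0.028 with library totals (adjusted p = 0.609, over alternatives 0.00297 to 0.609). Library totals also gave 1 member higher in docetaxel 8 h against DMSO (reported: 4), and 2 higher and 3 lower in 24 h against 8 h (reported: 1 and 5), and moved the median of all genes by -0.15, 0.13 and, for the combination against 8 h, 0.12. For related genes they turned the 8 h values of MTA2 (-0.12), GATAD2A (-0.14) and HDAC1 (-0.15) from near 0 to lower. DESeq2 changed no call of a member. JARID2 in 24 h against 8 h passed with library totals (0.22), and RBBP7 at 8 h did not pass without a filter (0.12).

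Leaving out single libraries gave 6 to 7 members lower in the combination against DMSO, 2 to 4 higher and 2 to 3 lower at 8 h of docetaxel, and 4 to 5 lower at 24 h. It also gave 4 to 5 lower in 24 h against 8 h, 2 to 3 higher and 5 to 7 lower in the combination against 24 h, and 7 to 8 lower against 8 h. AEBP2 in the combination was not past the threshold against 8 h of docetaxel with library totals (-0.089, adjusted p = 0.355, leaving 7 members lower) or without docetaxel 8 h library B (-0.15) or combination library A (-0.20) or C (-0.20), nor against 24 h without docetaxel 24 h library C (-0.15). PHF19 in the combination against 24 h was lost without docetaxel 24 h library A (0.10), combination library A (0.11) or a filter (0.13).

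The EZH2 share in the combination differed from DMSO by -8.96 points with the length of the longest transcript and by -10.7 with counts without length (reported: -7.70), and at 24 h of docetaxel by -1.53 without length (reported: -1.07). Without length the PHF19 share in the combination differed by 3.13 points (reported: 1.5), and with the longest transcript the JARID2 and AEBP2 share at 24 h by -1.85 (reported: -2.33). The cause of each was the length used.

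Libraries with the same letter did not deviate together: of 18 pairs 1 had a correlation over 0.1, with a range from -0.13 to 0.14, so the letters were not read as pairs. With the letter as a replicate block, EZH2 in the combination was at -0.73 (adjusted p = 9.04e-12), and no call of a member changed. At these depths members held 313 to 12778 counts per library, and the 95% intervals above give the range of changes that remain possible.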

Other observations

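Across the 12 libraries, the log2 CPM of EZH2 had a Pearson r of 0.93 with EED and RBBP7 and 0.92 with RBBP4, and -0.88 with EZH1. JARID2 had an r of -0.51 with EZH2 and 0.01 with SUZ12. These are descriptions over 12 libraries that share 4 treatments, so that few independent points lie behind each.

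Among 10613 protein-coding genes with a mean of at least 5 CPM, those with the most similar course over the 12 libraries were listed for the 4 core genes. For EZH2 they included SSRP1 (r 0.993), a histone chaperone subunit, TEX261 (0.993), ORC1 (0.993), of the origin recognition complex, and TSR1 (0.992). The 3 with the most opposite course were ANKRD1 (-0.990), CYR61 (-0.989) and CDKN1C (-0.987), which was also among the targets listed for PRC2. For EZH1 they were MYPN (0.975), ZNF862 (0.973), F2R (0.970), BVES (0.964) and SRGAP2 (0.963). EED was matched by ACOX3 (0.989), RPS6KB2 (0.987), DCTPP1 (0.986), ACTR3B (0.986) and BCAT2 (0.983), and SUZ12 by PTBP3 (0.994), APOL6 (0.993), NUP153 (0.990), SLC7A6 (0.990) and CRYBG1 (0.989).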
